A study of Mus musculus with 6 samples.

Results

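The genes described here encode nucleoporins, the building blocks of the nuclear pore, and the karyopherins, the receptors that carry cargo through it. They were taken by symbol from the deposited RNA sequencing table as the symbols that start with Nup and digits, with Ipo, Xpo or Tnpo and digits, or with Kpna or Kpnb. The receptor genes Ipo5, Xpo5 and Xpo7 were left out by the same rule. The rule gave 38 of the 10128 genes of the table, 20 nucleoporin genes and 18 receptor genes. It uses symbols alone, but the members were chosen with earlier results of these data known.

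The RNA came from cultured mouse embryonic stem (ES) cells of 129/Ola background, a derivative of the E14Tg2a line kept in medium with foetal calf serum and leukaemia inhibitory factor. The controls were heterozygous: 3 libraries came from Tex19.1+/- cells, with 1 intact copy of Tex19.1, and 3 from Tex19.1-/- cells, with none. Tex19.1 is active in germ cells, placenta and pluripotent cells of mammals. No label says whether the libraries of a genotype came from separate clones or cultures, so the p-values measure the spread between these libraries only, which may be technical. The authors' deposited table gives 1 log2 fold change, 1 mean level, 1 p-value and 1 adjusted p for each gene and no value per library. Single libraries, their depth and their overlap between genotypes are therefore not shown here. In the authors' deposited table Tex19.1 had the lowest log2 fold change of all genes, -6.92, and on that ground a positive value is taken to mean a higher level in Tex19.1-/- cells, so this gene is no check of the labels.

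The nuclear pore is a ring-shaped channel through the nuclear envelope, built of scaffold rings that hold a central meshwork of phenylalanine-glycine repeats. Large cargoes cross it bound to karyopherins, and the GTPase Ran sets the direction: importins release cargo where Ran carries GTP, inside the nucleus, and exportins bind cargo there. In ES cells this traffic brings pluripotency factors such as Oct4 into the nucleus. The levels of several nucleoporins and importin alpha subtypes are known to shift when ES cells differentiate.

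Most of the genes did not pass the test, and those that did changed little. By the authors' deposited table and a threshold of 0.05 on the adjusted p, 11 of the 38 rose in Tex19.1-/- cells, 1 fell and 26 did not pass. The background over all 10128 genes of the authors' deposited table was 51.7% called, with 25.2% higher and 26.5% lower, against 31.6%, 28.9% and 2.63% of the pore and receptor genes. Rises were thus about as frequent as among all genes, and falls were fewer. Among the 7401 genes of at least 16 CPM (counts corrected for library size), a level that all 38 exceed, 51.7% were called, 26.9% higher and 24.8% lower. The rises lay between 0.09 and 0.25 on the log2 scale, or 6.56% to 19.3%. The median log2 fold change of the 38 genes was 0.04 (range -0.09 to 0.25), against 0.003 for all genes of the authors' deposited table. Called changes of 0.2 or more in size were found for 3 of the 38 (7.89%) and for 29.2% of all genes in the authors' deposited table. At the stricter threshold of 0.01 on the adjusted p 9 of the 38 were called (without Xpo1, Nup155 and Kpna4), against 41.3% of all genes, and with Bonferroni adjustment 4 were called, against 23.8%. A standard error can be worked back from each fold change and its p-value under a normal law, and it lay between 0.035 and 0.053 for these genes. The resulting 95% intervals ran from -0.17 at the lowest to 0.34 at the highest, and the highest bound is a fold change of 1.26.

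**Figure D1:**
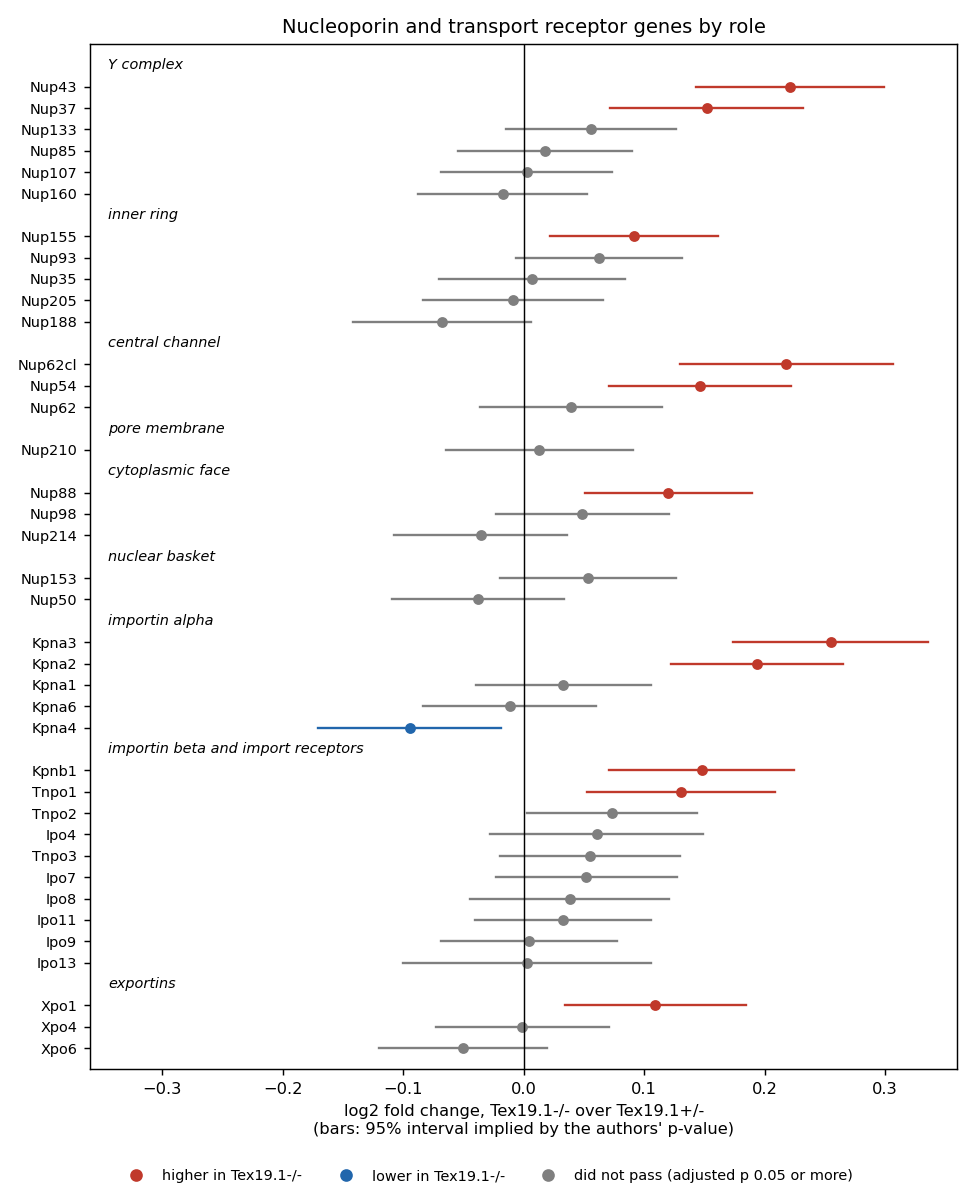
Log2 fold change of each of the 38 genes in the authors' deposited table (x axis, Tex19.1-/- over Tex19.1+/-), grouped by role on the y axis, with bars for the 95% interval implied by the authors' p-value. The 11 red genes lie between 0.09 and 0.25, Kpna4 alone is blue at -0.09, and the grey genes, which did not pass, lie between -0.07 and 0.07.

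Of the receptors left out by the rule, Xpo7 and Ipo5 moved more than any of the 38 genes, and Xpo5 did not. In the authors' deposited table Xpo7 stood at -0.67, Ipo5 at -0.47 and Xpo5, the exportin of microRNA precursors, at 0.21, each past the threshold. With them the counts were 12 higher and 3 lower of 41 (29.3% and 7.32%). Changes of 0.2 or more in size were then found for 6 of the 41 (14.6%). Xpo7 and Ipo5 lie on chromosome 14, where 18 and 16 of the 20 nearest measured genes also fell. The small number of falls and of larger changes among the 38 genes thus holds for the list without these receptors.

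Of the Y complex, the scaffold unit that forms the outer rings of the pore, 2 of 6 measured genes rose (33.3%) and none fell. Among all genes 25.2% rose and 26.5% fell, and 6 genes are too few to set the complex apart. Nup43 and Nup37 encode peripheral subunits of this complex. Nup43, on chromosome 10 from 7667503 to 7678881 (GRCm38, plus strand, ENSMUSG00000040034.15), was 16.6% higher in Tex19.1-/- cells, with a log2 fold change of 0.22 (implied SE 0.040, adjusted p = 1.84e-07, from the authors' deposited table). Nup37, also on chromosome 10, from 88146992 to 88178390 on the plus strand, was at 0.15 (implied SE 0.041, adjusted p = 0.000645, from the authors' deposited table). After adjustment for GC content and transcript length (a smoothed trend over all genes, removed), Nup37 stood at 0.09 and no longer passed, nor did it pass when measured from the median of its nearest measured genes, at 0.07. The other measured genes of this complex did not pass: the authors' deposited table gives Nup133 at 0.06, Nup85 at 0.02, Nup107 at 0.002 and Nup160 at -0.02. Their 95% intervals lie between -0.09 and 0.13. The difference between Nup43 and Nup37 and these other genes was not tested.

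The inner ring anchors the scaffold to the pore membrane and to the central channel. Of its 5 measured genes, Nup155 rose, at 0.09 (implied SE 0.035, adjusted p = 0.0214, from the authors' deposited table). Nup155 lies on chromosome 15 from 8109273 to 8161247 on the plus strand, among genes that were themselves higher: 11 of its 19 nearest measured genes rose, with a median of 0.11. Measured from that median Nup155 stood at -0.02 and did not pass. The hub gene Nup93 was at 0.06 and the membrane-binding Nup35 at 0.01 in the authors' deposited table. The authors' deposited table gives the large scaffold protein genes Nup205 at -0.01 and Nup188 at -0.07, and none of these 4 passed.

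The central channel is lined by a trimer of Nup62, Nup54 and Nup58, whose repeats form the barrier to diffusion. Nup54, on chromosome 5 from 92415540 to 92435219 on the minus strand, rose to 0.15 (implied SE 0.039, adjusted p = 0.000513, from the authors' deposited table). Nup62 itself did not pass, at 0.04 (adjusted p = 0.405, from the authors' deposited table). Some of its exonic bases are shared with Il4i1 on the same strand (3.40%) and with Atf5 on the other (2.87%). The strand setting of the counting is not given in the sources used here. Other members share more on the opposite strand: Tnpo2 10.6%, Nup133 10.4%, Nup188 7.88% and Kpnb1, which rose, 7.07%. Nup62cl, an X-linked gene named for its likeness to the C-terminal part of Nup62, rose to 0.22 (implied SE 0.045, adjusted p = 6.21e-06, from the authors' deposited table). It lies from 140006805 to 140062712 on the minus strand, and it was the least expressed of the 38 genes at 43.1 CPM. The X chromosome as a whole stood slightly higher, with a median of 0.07 over 315 genes in the authors' deposited table. Measured from the median of its nearest measured genes, 0.11, Nup62cl stood at 0.11 and still passed. Nup210, a membrane-spanning nucleoporin that is known to rise in neural and muscle differentiation, was at 0.01 (95% interval -0.06 to 0.09).

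On the cytoplasmic face, where messenger RNA is released, 1 of 3 genes rose (33.3%), against 25.2% of all genes. Nup88, on chromosome 11 from 70943058 to 70969973 on the minus strand, was at 0.12 (implied SE 0.035, adjusted p = 0.00188, from the authors' deposited table). Its partner Nup214 was at -0.04 and Nup98, whose gene also encodes the Y complex subunit Nup96, at 0.05 in the authors' deposited table, neither past the threshold. Nup88 stands among raised genes: 11 of its 20 nearest measured genes rose, their median was 0.12, and the difference of Nup88 from them was 0.005, which did not pass. In the nuclear basket, on the inner side, Nup153 was at 0.05 and Nup50, which binds importin alpha, at -0.04 in the authors' deposited table, and neither passed.

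Importin alpha proteins are the adaptors that recognise the classical nuclear localisation signal. This family held the largest rise and the only fall: of 5 measured genes 2 rose, 1 fell and 2 did not pass. Kpna3, on chromosome 14 from 61365211 to 61439874 (GRCm38, minus strand, ENSMUSG00000021929.9), was 19.3% higher, with a log2 fold change of 0.25 (implied SE 0.041, adjusted p = 4.22e-09, from the authors' deposited table). Kpna4, which encodes a close paralog of the Kpna3 protein, fell by 6.35%, to -0.09 on the log2 scale (implied SE 0.039, adjusted p = 0.0300, from the authors' deposited table). Kpna4 lies on chromosome 3 from 69067149 to 69127113 on the minus strand. Its call is narrow: Kpna4 did not pass at an adjusted p under 0.01, and after adjustment for GC content and length it stood at -0.06 without passing. The difference between these paralogs was not tested. Kpna2, the subtype known for carrying Oct4 into the nucleus of ES cells, was 14.4% higher, at 0.19 (implied SE 0.037, adjusted p = 5.80e-07, from the authors' deposited table). It lies on chromosome 11 from 106988629 to 106999541 on the minus strand, where 11 of its 20 nearest measured genes also rose. Measured from their median of 0.11, Kpna2 stood at 0.09 and still passed. The authors' deposited table gives Kpna1 at 0.03 and Kpna6 at -0.01, neither of which passed.

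Of the genes that changed, Kpna3 and Nup43 have no sequence printed here. For the next largest rises, Nup62cl and Kpna2, and for the only fall, Kpna4, the bases just upstream of the outermost GENCODE start are shown, as the stretches that precede the transcripts whose levels differed. They come from RefSeq promoter windows (GRCm38.p6) and run from 5′ to 3′ on the gene's own strand, which is the minus strand for each of the 3 genes. Capitals mark matches, on either strand, to the letters GGGCGG (the SP family's GC box) or CCAAT (the box bound by NFY). The stretches are chrX:140062713-140062818 for Nup62cl, chr11:106999542-106999775 for Kpna2 and chr3:69127114-69127342 for Kpna4.
Nup62cl: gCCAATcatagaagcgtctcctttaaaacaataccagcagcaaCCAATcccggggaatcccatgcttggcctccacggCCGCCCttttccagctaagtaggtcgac
Kpna2: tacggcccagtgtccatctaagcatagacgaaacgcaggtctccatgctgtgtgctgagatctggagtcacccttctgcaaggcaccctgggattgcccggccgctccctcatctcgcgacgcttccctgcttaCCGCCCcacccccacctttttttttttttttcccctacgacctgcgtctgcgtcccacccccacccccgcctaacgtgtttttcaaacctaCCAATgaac
Kpna4: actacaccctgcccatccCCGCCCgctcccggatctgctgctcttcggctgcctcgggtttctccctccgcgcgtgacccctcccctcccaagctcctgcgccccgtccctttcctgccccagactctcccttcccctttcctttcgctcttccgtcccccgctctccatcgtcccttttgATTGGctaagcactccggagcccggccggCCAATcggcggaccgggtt
Each stretch holds 1 GGGCGG match. Nup62cl and Kpna4 hold 2 CCAAT matches each and Kpna2 holds 1. Nup62cl and Kpna2, which rose, and Kpna4, which fell, thus carry the same kinds of match in these stretches. GC content was 53.8% in the Nup62cl stretch, 57.3% for Kpna2 and 67.2% for Kpna4.

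Motif letters were also counted over whole windows, 250 bases before to 50 after a RefSeq start, on both strands. Of the 38 genes 31 had a window. CCAAT was found in 18 of the 31 (58.1%), in 43.9% of the 7640 genes of the table that have a window, and in 41.1% of all 27025 genes with one. GGGCGG was found in 22 of 31 (71.0%), against 73.1% for genes of the table and 38.2% for all genes. The letters CCGGAA of the ETS family were in 10 of 31 (32.3%, against 34.4% and 16.7%), and CACGTG, an E-box, in 6 of 31 (19.4%, against 12.7% and 8.09%). The core letters of the NRF1 site, TGCGCA, were in 5 of 31 (16.1%, against 17.8% and 8.79%). AAGATGG, part of the YY1 motif, was in 4 of 31 (12.9%, against 9.29% and 7.28%), and TATAAA in 3 of 31 (9.68%, against 7.67% and 15.7%). Of the 9 risen genes with a window, CCAAT was in 8, GGGCGG in 7, CCGGAA in 3, CACGTG and AAGATGG in 1 each, and TGCGCA and TATAAA in 0. Whether these counts differ from the shares of other genes was not tested. A match describes the letters of the window only.

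Importin beta, encoded by Kpnb1, carries importin alpha and its cargo through the pore. Kpnb1 rose, at 0.15 (implied SE 0.039, adjusted p = 0.000517, from the authors' deposited table). It lies on chromosome 11 from 97159714 to 97187881 on the minus strand. Its 20 nearest measured genes had a median of -0.02, so it differed from its near neighbours, while against the median of the whole chromosome (0.07) it stood at 0.07 and no longer passed. Of the other receptors that import cargo directly, Tnpo1, which carries hnRNP proteins, rose, at 0.13 (implied SE 0.040, adjusted p = 0.00285, from the authors' deposited table). Tnpo1 lies on chromosome 13 from 98839019 to 98926384 on the minus strand. Of its 20 nearest measured genes 12 rose and 1 fell, with a median of 0.13, and Tnpo1 differed from that median by 0.003, without passing.

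The remaining 8 import receptor genes did not pass, and all had positive values. Tnpo2, the paralog of Tnpo1, was nearest to the threshold, at 0.07 (adjusted p = 0.0769, from the authors' deposited table). It passed, at 0.09, after adjustment for GC content and length. Tnpo3, the importer of SR splicing factors, was at 0.05, Ipo7, which carries ribosomal proteins, at 0.05, and its paralog Ipo8 at 0.04 in the authors' deposited table. Ipo11 was at 0.03, the histone importer Ipo9 at 0.004 and Ipo13 at 0.003 in the authors' deposited table. Ipo4 was at 0.06 in the authors' deposited table, but 55.3% of its exonic bases are shared with the overlapping gene model Gm49378 on the same strand, so its value is uncertain.

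Exportins carry cargo out of the nucleus. Xpo1, also called CRM1, which recognises leucine-rich export signals, rose, at 0.11 (implied SE 0.038, unadjusted p = 0.00415, past the adjusted threshold of 0.05, from the authors' deposited table). Its gene lies on chromosome 11 from 23256041 to 23298249 on the plus strand, and measured from the chromosome's median it stood at 0.04 and did not pass. Xpo4, known to export eIF5A and to import Sox2, was at -0.001 and Xpo6, the exportin of actin, at -0.05 in the authors' deposited table, and neither passed.

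Levels per length, in CPM per kilobase of the longest coding transcript, are shown in the plot of expression levels. They compare genes within the mean of all 6 libraries and carry no spread, so neighbours in the order cannot be told apart by a test. Kpna2 was highest at 214, followed by Kpnb1 at 167, Xpo1 at 86.9, Ipo7 at 81.7 and Nup62 at 79.2 CPM per kilobase. The adaptor, its carrier and the main exportin thus head the order, and each of them rose in Tex19.1-/- cells, while Ipo7 and Nup62 did not pass. Kpna2, Kpnb1 and Xpo1 lie on chromosome 11, where 42.1% of genes rose. Measured from the median of that chromosome, Kpnb1 and Xpo1 did not pass. Of the importin alpha genes, Kpna3 followed at 30.5, Kpna1 at 24.2, Kpna6 at 19.4 and Kpna4 at 10.5 CPM per kilobase. Kpna2 therefore stood far above the other adaptors, and the gene that fell was the lowest of them. Nup210 was lowest of the 38 genes at 9.57 CPM per kilobase. The scaffold genes spread less, from 25.6 for Nup133 to 71.7 for Nup85 in the Y complex and from 20.2 for Nup155 to 62.3 for Nup93 in the inner ring. The median of the 38 genes was 29.5, against 10.9 CPM per kilobase for all genes of the table with a length.

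**Figure D2:**
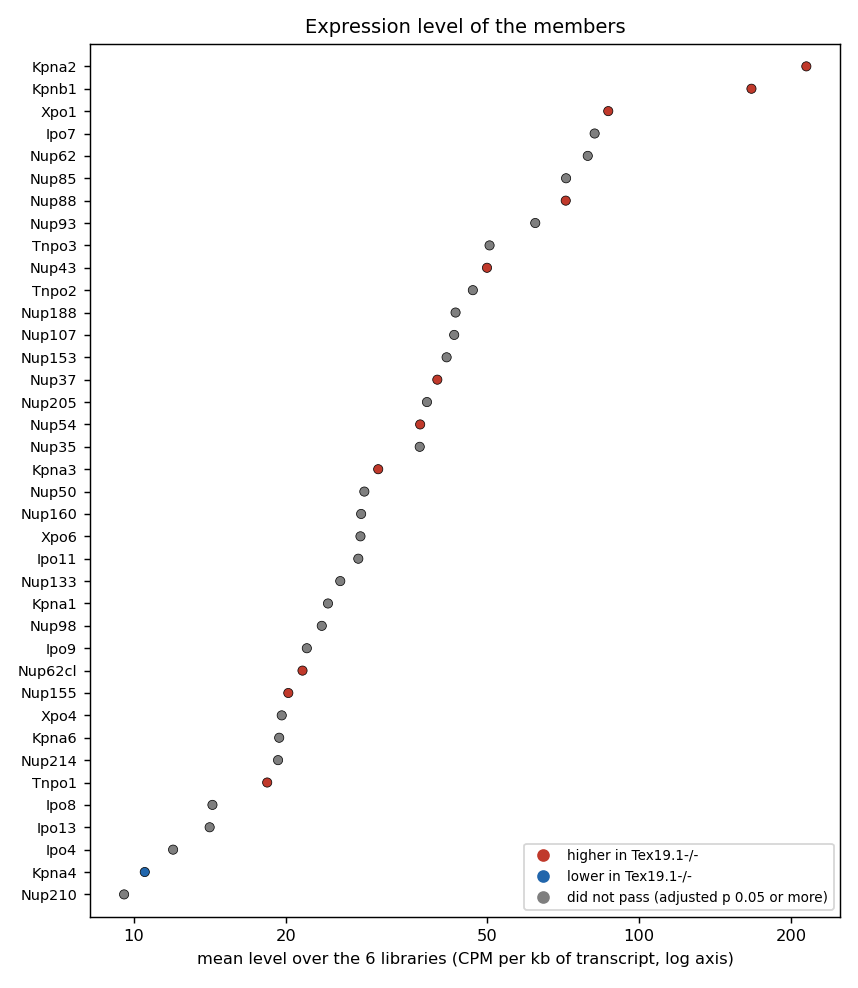
Mean level of each of the 38 genes over the 6 libraries (x axis, CPM per kilobase of the longest coding transcript, log axis), ordered from lowest to highest on the y axis and coloured by the call. Kpna2 at 214 and Kpnb1 at 167 lie apart from the rest, which run from 9.57 to 86.9.

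**Figure D3:**
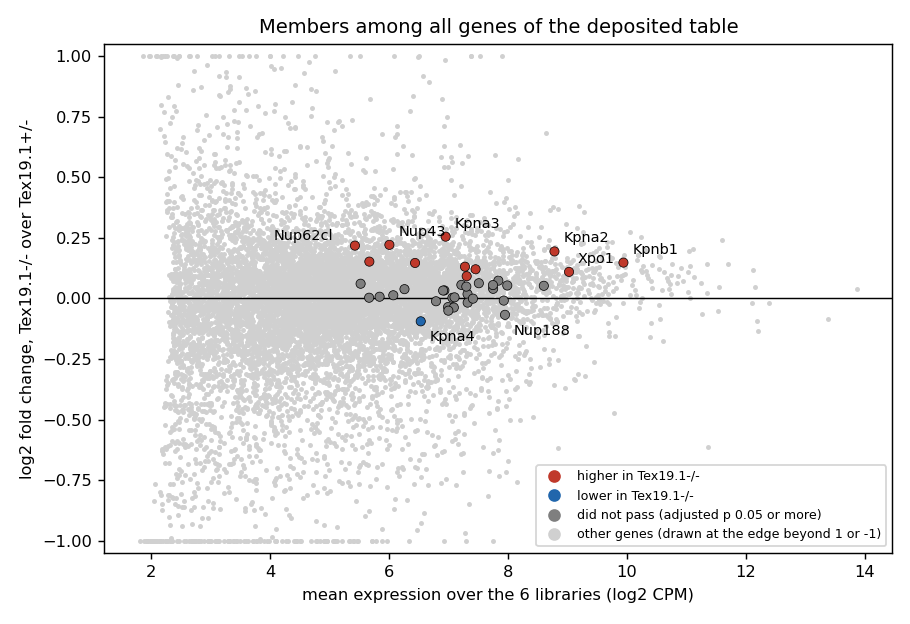
Log2 fold change (y axis) against mean expression in log2 CPM (x axis) in the authors' deposited table, with the 38 genes coloured by the call over all other genes in grey. The 38 genes keep to a band from -0.09 to 0.25 while many genes of the same level lie beyond it.

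The changes were also set against genes of like expression and against position. Among genes of nearest mean level, the spread of fold changes was wide enough that none of the 38 genes passed when it was used in place of the authors' test, with 0 at an unadjusted p under 0.05, while 6.21% of all genes passed. The 38 genes lie on 15 chromosomes. Chromosome 11, where 42.1% of 808 genes rose, holds 5 of them, and 4 of those rose: Kpna2, Kpnb1, Nup88 and Xpo1. The fifth, Nup85, did not pass. Chromosomes 2, 6 and 7, named after their values were seen, hold 4 members each, and none of these 12 genes passed. Of all genes there, 24.7%, 22.1% and 21.7% rose and 27.9%, 28.4% and 28.6% fell. Kpna3, Kpna2, Nup43, Nup62cl, Nup54, Kpnb1 and Xpo1 still passed as higher when the median of their neighbours was subtracted, as did Nup98. In all, 8 members were then higher and 1 lower, against 24.9% and 26.6% of genes. Measured from the median of the chromosome, 9 were higher and 1 lower, against 24.5% and 27.1%. Of those 9, 7 were among the 11 risen genes, and the others were Ipo4 and Xpo4. Kpnb1, Xpo1, Nup88 and Nup155 no longer passed. After adjustment for GC content and length 11 were higher, 10 of them among the 11 risen genes, and none lower, against 23.4% and 26.5%. On chromosome 14, whose median was -0.12, Kpna3, Ipo4 and Xpo4 lie outside the lowered stretches around Xpo7 and Ipo5, with neighbour medians of 0.04, -0.01 and 0.02. Whether position has a part in the changes of Nup155, Nup88, Tnpo1, Nup37, Kpna2 and Nup62cl was not tested.

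**Figure D4:**
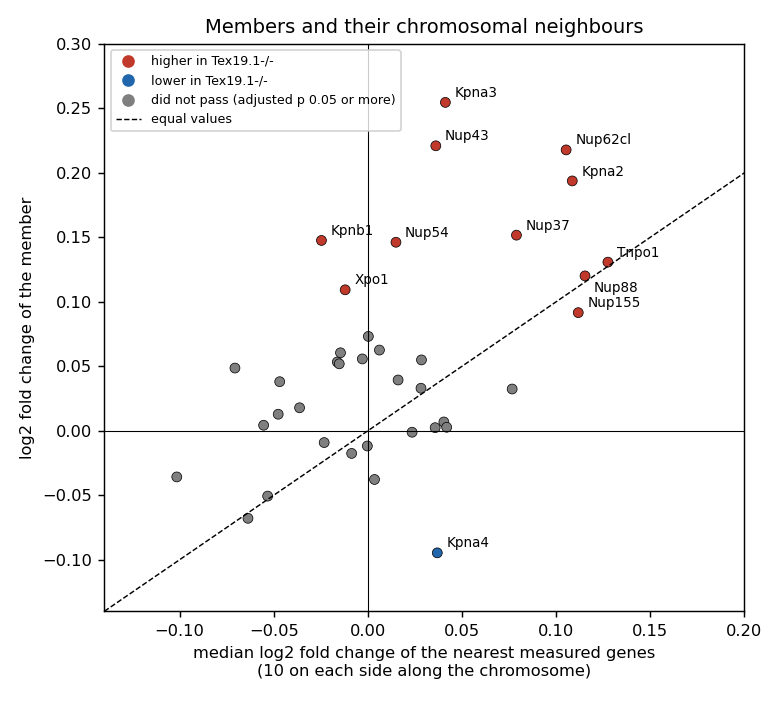
Log2 fold change of each of the 38 genes (y axis) against the median of the 10 nearest measured genes on each side along the chromosome (x axis), computed from the authors' deposited table. Kpna3 and Nup43 lie well above the dashed line of equal values, Tnpo1 and Nup88 lie on it, and Nup155 and Kpna4 lie below it.

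Other genes of the pore and of nuclear transport, which the symbol rule does not reach, are given by list. Of 12 nucleoporin genes with other names, 1 rose and 1 fell (8.33% each), against 25.2% and 26.5% of all genes. The median of the 12 was -0.04. Seh1l, a Y complex subunit gene, was at 0.13 and Ndc1, which encodes a membrane protein that anchors the pore, at -0.21 in the authors' deposited table. None of the 6 genes of the cytoplasmic face and basket passed (0 at an unadjusted p under 0.05): the authors' deposited table gives the 4 of lowest p-value, Rae1 at -0.06, Nupl2 at -0.09, Gle1 at -0.06 and Ranbp2 at -0.06. Nupl1, which encodes the third subunit of the channel trimer, did not pass at 0.08 in the authors' deposited table, nor did the membrane nucleoporin gene Pom121 at -0.03.

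Of 10 transport factors with other names, 6 rose (60.0%) and 1 fell (10.0%), against 25.2% and 26.5% of all genes. Their median was 0.11. In the authors' deposited table Phax, an adaptor for the export of small nuclear RNA, was at 0.27, Nutf2, which returns Ran to the nucleus, at 0.22, and Nxt1 and Nxf1, the heterodimer that exports messenger RNA, at 0.26 and 0.15. The nearest measured genes of Nxt1 had a median of 0.12. The only fall was that of Nxt2, at -0.27 (adjusted p = 0.000331, from the authors' deposited table, 10.3 CPM). The authors' deposited table gives the export receptor of importin alpha, Cse1l, at 0.08 (adjusted p = 0.0622). Nxt2 and Cse1l are named here after their values were seen. In the Ran cycle 3 of 6 genes rose and 1 fell: Ranbp1 was at 0.15, Rangrf at 0.20, the GTPase activator gene Rangap1 at -0.12 and Ranbp3 at 0.11 in the authors' deposited table. Ran itself and its exchange factor Rcc1, named after their values were seen, did not pass, with -0.02 for Ran and -0.01 for Rcc1 in the authors' deposited table. Of 18 messenger RNA export genes 7 rose and 1 fell, with a median of 0.04, led in the authors' deposited table by the helicase gene Ddx39 at 0.21, Thoc1 at 0.16, Sarnp at 0.15 and Ddx19b at -0.14.

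Of 16 genes of the nuclear lamina and inner membrane 6 fell (37.5%) and 2 rose (12.5%), against 26.5% and 25.2% of all genes. The median of the 16 was -0.03, and whether these shares differ from those of all genes was not tested. Lmna, which encodes the A-type lamins that ES cells hold at low level and differentiated cells at high level, was at -1.15, a larger change than that of any pore or receptor gene, and the authors' deposited table gives Sun1 at -0.25, Sun2 at -0.49 and Banf1 at 0.16. Markers of endoderm also fell: 14 of 15 measured endoderm genes were lower (93.3%), against 26.5% of all genes. Their values ran from -2.93 to -0.01, with a median of -1.80 in the authors' deposited table. Sox17, Foxa2, Amn, Hnf4a, Afp and Ttr were also among the 21 listed endoderm genes but had no value here, so they were not analysed. The markers of ES cells were measured at high level, 17 of 17 listed, with a median of 318 CPM. Of these 8 rose (47.1%) and 6 fell (35.3%), between -0.37 and 0.36. Of 14 fibroblast and feeder markers 5 were measured, 3 of them higher (60.0%) and 2 lower (40.0%), from -0.76 to 0.42. In bulk samples, fewer cells of a type and less RNA per cell cannot be told apart, and the part of the endoderm markers in the values of the pore, receptor and lamina genes was not tested.

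**Figure D5:**
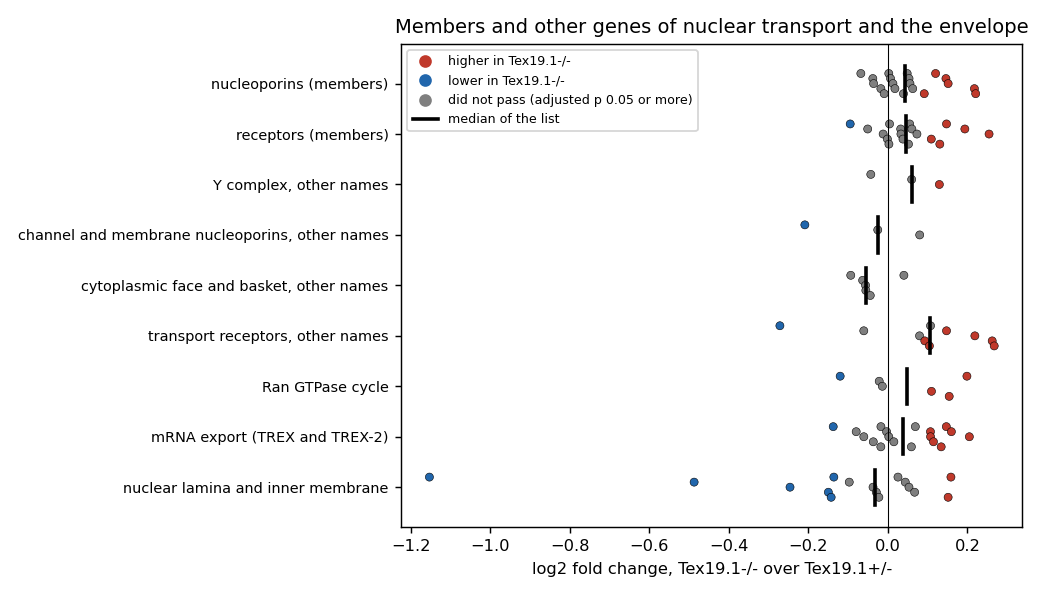
Log2 fold changes in the authors' deposited table (x axis) for the 38 genes, split into nucleoporins and receptors, and for 7 lists of other genes of nuclear transport and the envelope (y axis), with each list's median as a black line. The lists of the pore and of transport run from -0.27 to 0.27, and Lmna at -1.15 lies apart.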

How the data were processed

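RNA sequencing libraries from 3 Tex19.1+/- and 3 Tex19.1-/- ES cell samples were prepared with a stranded mRNA kit, per the labels' protocols. The tools listed in the submitters' processing notes are HTSeq 0.11.2, TopHat2 2.1.0, Trim Galore 0.4.1 and edgeR, with build mm10; which annotation, strand setting, filter and test were used is not given in the sources. For 10128 genes the authors deposited, per the file headers, log2 fold changes, log2 CPM means, p-values and false discovery rates. No gene of the table has a log2 CPM mean under 1.82. Recomputed Benjamini-Hochberg values differ from the deposited rates by at most 6.7e-05. There are no columns per library, so the authors' comparison is used as deposited, with an adjusted p threshold of 0.05, and no model was fitted; depth is unknown.

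The members, the lists and the tests were chosen with earlier results of these data known. Every member is named; from each other list up to 4 genes with the smallest p-value are named, together with Tex19.1. Sequences were to be printed for the 2 largest rises and the 2 largest falls; the next largest rises with a RefSeq window were taken, and there was 1 fall. Standard errors and 95% intervals were worked back from fold change and p-value under a normal law. Positions, transcript lengths and GC content come from GENCODE release M21 (GRCm38), which 9587 symbols matched directly and 135 through RefSeq synonyms, with 406 unmatched. All 38 members matched. Neighbours are the 10 measured genes on each side along the chromosome. The alternatives were a stricter threshold, Bonferroni adjustment, a least log2 change of 0.2, genes of at least 16 CPM, the spread (1.4826 times the median absolute deviation) of the genes nearest in expression, and fold changes centred on the median of all genes or of the chromosome. Added after seeing the data were centring on neighbours, a lowess trend on GC content and length (span 0.3, statsmodels 0.14.6), and 2 changes of membership. The scripts (Python 3.11.15, scipy 1.17.1) were tested on simulated data.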

Additional observations from a re-analysis of the deposited data

How the results depend on the processing

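No paired analysis was possible because the deposited table holds no value per library, and for the same reason no library could be left out in turn. The 11 rises and 1 fall became 4 and 0 with Bonferroni adjustment and 3 and 0 with a least absolute log2 change of 0.2. With the spread of genes of like expression the counts were 0 and 0 (0 at an unadjusted p under 0.05). That setting asks whether a gene stands out from the fold changes of genes of its level, not whether it changed. The fall was also lost at an adjusted p under 0.01 and after adjustment for GC content and length (0 lower each), where 9 and 11 were higher. With Ipo5, Xpo5 and Xpo7 the counts were 12 and 3. The other settings gave 8 to 11 rises and 1 fall. The median log2 fold change stayed between 0.04 and 0.06 in the 7 alternatives run for it. Centring on the median of all genes (0.003) changed no call. Against the median of its chromosome, Xpo4 turned from -0.001 to 0.12 and passed, as did Ipo4 at 0.18, on a chromosome whose median was -0.12. Centred on its neighbours, Nup155 turned from 0.09 to -0.020 and did not pass. The cause of these changes was not tested beyond the medians subtracted. No depth is known, and with a median implied SE of 0.037 a change well under 0.1 is not detectable for most members.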

Other observations

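The members that changed had transcripts of lower GC content than those that did not, a split described after the values were seen. Transcript GC content ran from 39.6% to 47.8% in the 12 genes that changed and from 40.3% to 57.5% in the 26 that did not pass, with medians of 43.2% and 48.7%. Of the 19 genes at or below the members' median of 47.3%, 10 rose and 1 fell, and of the 19 above it 1 rose. Over the whole table the share that rose was 25.9% at or below that GC content and 24.9% above it. After adjustment for GC content and length, 10 of the 11 rises were still called, without Nup37, and Tnpo2 was called as well. Their transcripts were also shorter, with a median length of 3261 bases against 4962 in those that did not pass, while the members' median was 4825 and that of all genes 3258 bases. Level did not separate the members in this way: the median was 140 CPM in the genes that changed and 143 CPM in those that did not pass. No test was run on this pattern, and GC content, length and position were not taken apart.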
